A study of Mus musculus with 6 samples.

Results

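The Bcl2 family comprises the proteins that decide at the mitochondrial outer membrane whether a cell lives or undergoes apoptosis. The mRNAs of 10 family genes were examined in bone marrow-derived dendritic cells (BMDCs), and all 10 were found among the 52073 named genes of the count files and among the 21849 genes with enough reads to be tested. The genes were chosen by name and by role and not by their values, although earlier results of these data were known. They are 4 anti-apoptotic genes (Bcl2, Bcl2l1, Mcl1 and Bcl2a1b), 2 effectors (Bax and Bak1) and 4 BH3-only genes (Bcl2l11, Bbc3, Pmaip1 and Bid).

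Anti-apoptotic members hold the effectors and the BH3-only proteins in check by binding the BH3 helix of their partners. When BH3-only proteins are in excess, Bax and Bak1 form pores in the outer membrane, cytochrome c leaves the mitochondrion, and caspases are activated. Dendritic cells depend on these genes for their lifespan, and several of them, Bcl2l1 and Bcl2a1 among others, are known target genes of NF-κB factors. Nfkb2 encodes p100, which is both the precursor of the p52 subunit and an inhibitor of other NF-κB dimers.

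Bone marrow cells from C57BL/6 WT mice and from Nfkb2-/- mice were cultured for 9 days, for 5 days in GM-CSF at 20 ng/ml and for the last 4 days with IL-4 at 10 ng/ml added, and RNA was taken without further stimulation. Each genotype had 3 libraries of polyadenylated RNA, described in the study's methods as biological replicates. The deletion is global, so that the knockout applied to every cell of the culture and to the animal the marrow came from. The age and sex of the mice and the construction of the allele are not given in the sources used here.

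The libraries held between 29863927 and 55623068 counts, so that 3 counts corresponded to at most 0.1005 CPM (counts scaled to library size). Nfkb2 itself measured 154 to 355 CPM in WT and 32.3 to 44.8 CPM in Nfkb2-/- BMDCs, with -2.72 as its log2 fold change (standard error, SE, 0.33, adjusted p = 0.0307 from edgeR). A list of 12 dendritic cell markers summed to between 6366 and 12023 CPM in WT and between 8168 and 9344 CPM in Nfkb2-/- libraries. Among erythroid markers, Hba-a1, Hba-a2 and Hbb-bs were at 3 counts or fewer in every library, Hbb-bt had 0 counts in each WT library and 6 to 19 in the Nfkb2-/- libraries, and Alas2 had 110 to 287. A pair of libraries stood apart. Nfkb2-/- replicate 1 had at least 1 count for 47952 genes against 27692 to 33841 in the others, and it held the highest sums of B cell markers (7.12 CPM against 0.767 to 1.64) and of T and NK cell markers (4.96 CPM against 0.400 to 2.01). Low-count genes of other kinds were also highest there, such as Hrk (54 counts against 0 to 8) and Trp73 (84 against 0 to 12). The source of these reads was not tested. WT replicate 3 had the lowest sum of macrophage and monocyte markers, 164 CPM against 743 to 1140. In such bulk RNA, fewer cells of a type and less RNA per cell cannot be told apart.

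To ask whether loss of Nfkb2 altered the apoptotic machinery of resting BMDCs, WT and Nfkb2-/- libraries were set against each other by the quasi-likelihood test of edgeR across all 21849 genes. A gene was called when its Benjamini-Hochberg adjusted p was under 0.05 and its fold change over 1.2. None of the 10 family genes was called, where 1.14% of all genes tested were called (0.453% as higher and 0.682% as lower in Nfkb2-/- BMDCs). Bcl2 and Bcl2l11 had an unadjusted p under 0.05, Bcl2 with a higher level and Bcl2l11 with a lower level, against 9.03% and 8.04% of all genes (17.1% in both directions). They were also the members whose 6 values separated by genotype without overlap, 1 member in each direction. Over all genes such separation was seen for 12.7% in the higher and 12.0% in the lower direction, 24.7% in all, so that 2 of 10 members lies near the background. The log2 fold change was above 0 for 4 members and below 0 for 6. The median over the 10 members was -0.11, beside 0.08 over all genes tested. DESeq2 called Bcl2 and Bcl2l11, 2 of 10, where it called 10.7% of the 17497 genes it gave an adjusted p. Limma voom called no member.

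**Figure D1:**
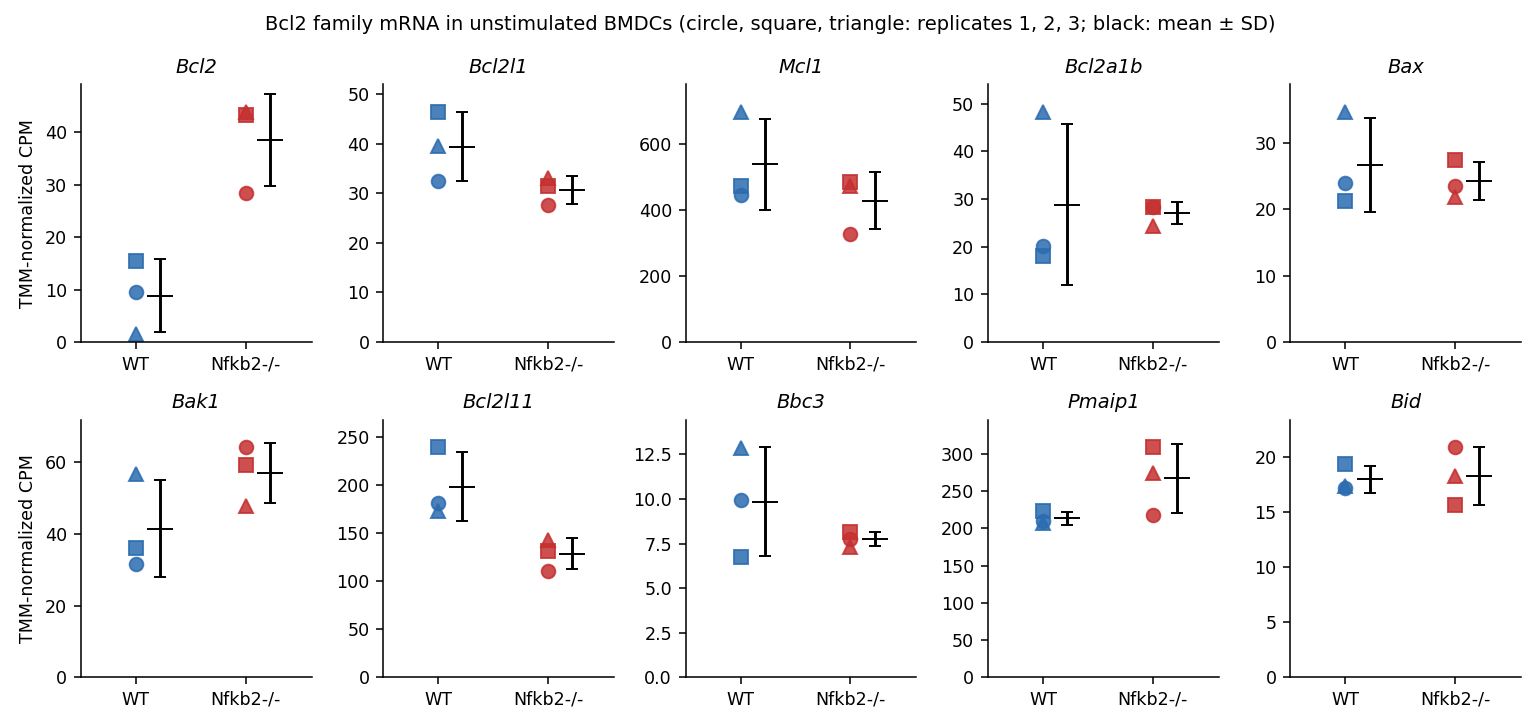
TMM-normalized CPM of each Bcl2 family gene in the 3 WT and 3 Nfkb2-/- libraries, with the replicates as different symbols and the mean ± SD in black, on linear axes that start at 0. The genotypes separate for Bcl2, 1.58 to 15.5 CPM against 28.5 to 43.9 CPM, and for Bcl2l11, 174 to 239 CPM against 111 to 143 CPM, and overlap for the other 8 genes.

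Among the anti-apoptotic genes, Bcl2 (ENSMUSG00000057329, chr1:106538178-106714274, minus strand, GRCm38) encodes the founding member of the family. It measured 9.49, 15.5 and 1.58 CPM in WT replicates 1, 2 and 3 and 28.5, 43.2 and 43.9 CPM in Nfkb2-/- replicates 1, 2 and 3. Every Nfkb2-/- value lay above every WT value, and the WT values themselves spanned from 46 counts in replicate 3 to 505 counts in replicate 2. The means were 8.87 ± 6.997 CPM and 38.5 ± 8.72 CPM (SD, n = 3 each). The difference was 2.12 on the log2 scale (SE 0.68, 95% confidence interval 0.53 to 3.71), with an unadjusted p of 0.0160 and an adjusted p of 0.178 from edgeR. The exact two-sided permutation test of 3 libraries against 3 gave p = 0.1, the smallest value this design allows. Without WT replicate 3, the library with the lowest Bcl2, the log2 fold change was 1.63, and without WT replicate 2 it was 2.78. Over 14 alternative analyses the adjusted p ranged from 1.57e-10 to 0.441. It was under 0.05 with DESeq2 (0.0129) and in edgeR without a filter on low counts, where 1 of 10 members was called against 3.50% of 46410 genes. Bcl2 shares 558 exonic bases with the antisense gene D630008O14Rik, which had 2 to 51 counts per library.

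The order of the 6 libraries by Bcl2 was also their order by the summed level of 10 markers of proliferating cells (Mki67, Top2a, Plk1 and others), which served as a check of the cells in culture. These markers summed to 80.9 CPM in WT replicate 3, 154 CPM in WT replicate 1, 442 CPM in WT replicate 2 and 562, 813 and 904 CPM in Nfkb2-/- replicates 1, 2 and 3. All 10 markers had higher values in each Nfkb2-/- library than in any WT library, against 12.7% of all genes tested. All 10 also had an unadjusted p under 0.05 from edgeR, against 9.03% of all genes in the higher direction. The median log2 fold change was 1.73, although edgeR called only Plk1 (log2 fold change 2.37, edgeR adjusted p = 0.0444). The macrophage and monocyte list, at 164 CPM in the WT library with the least Bcl2, did not separate the genotypes (164 to 1140 CPM in WT and 743 to 886 CPM in Nfkb2-/-). Within WT, however, it rose in the same order of replicates 3, 1 and 2 as Bcl2 (164, 944 and 1140 CPM). A list of neutrophil markers had this WT order too (106, 270 and 431 CPM), and the lists of the other cell types did not. The part of proliferating cells or of other cell types in the Bcl2 values was not tested.

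**Figure D2:**
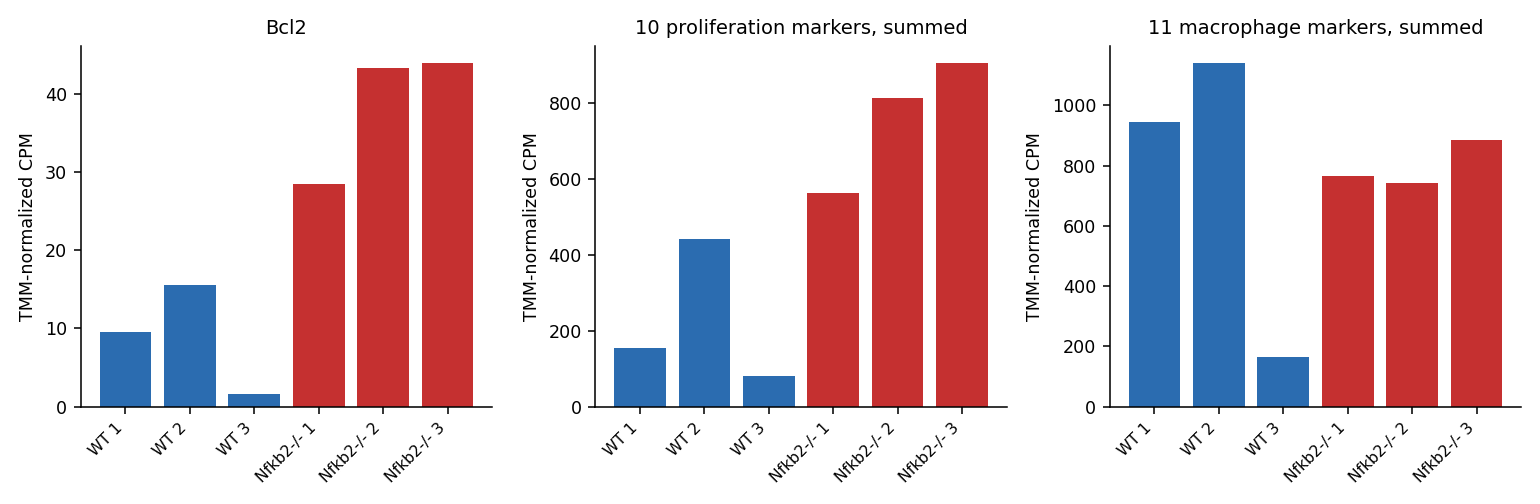
Bars give TMM-normalized CPM in each of the 6 libraries for Bcl2 and for summed marker lists, from 0 on linear axes, with WT and Nfkb2-/- in different colors. Bcl2 and the proliferation markers are lowest in WT replicate 3 (1.58 and 80.9 CPM) and highest in Nfkb2-/- replicate 3 (43.9 and 904 CPM).

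Mcl1 (ENSMUSG00000038612, chr3:95658788-95663176, plus strand) encodes a short-lived anti-apoptotic protein on which many myeloid cells depend. Its level was 446, 472 and 697 CPM in WT and 328, 484 and 472 CPM in Nfkb2-/- libraries. The highest value was that of WT replicate 3, the lowest that of Nfkb2-/- replicate 1, and the genotypes overlapped. The log2 fold change of -0.33 (SE 0.24, 95% confidence interval -0.90 to 0.24, edgeR adjusted p = 0.531) was -0.10 when WT replicate 3 was left out and -0.18 without Nfkb2-/- replicate 1.

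Bcl2l1 (ENSMUSG00000007659, chr2:152780668-152831728, minus strand), the gene of Bcl-xL, measured 32.4, 46.3 and 39.5 CPM in WT and 27.6, 31.4 and 33.0 CPM in Nfkb2-/- libraries. Only Nfkb2-/- replicate 3 exceeded the lowest WT library. The means of 39.4 ± 6.96 and 30.7 ± 2.78 CPM (SD, n = 3 each) gave a log2 fold change of -0.36 (SE 0.18, 95% confidence interval -0.77 to 0.05, edgeR adjusted p = 0.361). Its log2 fold change stayed below 0 in all 14 alternatives, between -0.48 and -0.23.

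Bcl2a1b (ENSMUSG00000089929, chr9:89199209-89207827, plus strand) is a mouse copy of the gene for A1, an anti-apoptotic protein of hematopoietic cells. It measured 20.2, 17.97 and 48.2 CPM in WT and 28.4, 28.3 and 24.4 CPM in Nfkb2-/- libraries. The first and second WT replicates were below and the third above all Nfkb2-/- libraries. Its log2 fold change was -0.09 (SE 0.37, 95% confidence interval -0.96 to 0.78, edgeR adjusted p = 0.923), and 0.50 without WT replicate 3 (edgeR adjusted p = 0.185), and it also turned to 0.047 when total counts replaced TMM.

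Bcl2a1b is 1 of 4 near-identical Bcl2a1 genes on chromosome 9. The coding sequences of Bcl2a1a, Bcl2a1b and Bcl2a1d, 516 bases each, were compared in the GENCODE M21 transcripts. Bcl2a1b matched Bcl2a1d at 98.84% of positions, with 6 mismatches, and Bcl2a1a at 97.87%, with 11. Of the 12 positions at which the 3 genes vary, 6 lie in the first 60 bases of the coding sequence. These bases are printed 5′ to 3′ on the coding strand to show how little sequence tells the copies apart, and the capitals mark the variable positions. They lie at chr9:88957051-88957110 (plus strand) in Bcl2a1a, chr9:89199360-89199419 (plus strand) in Bcl2a1b and chr9:88731660-88731719 (minus strand) in Bcl2a1d, all in GRCm38.
Bcl2a1a: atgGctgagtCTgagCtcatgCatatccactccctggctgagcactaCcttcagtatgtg
Bcl2a1b: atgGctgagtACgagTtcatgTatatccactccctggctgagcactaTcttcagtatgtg
Bcl2a1d: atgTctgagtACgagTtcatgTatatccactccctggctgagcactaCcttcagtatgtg

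Across the whole transcript, 31.06% of the 100-base windows of Bcl2a1b occurred without a mismatch in another Bcl2a1 gene, against 43.47% for Bcl2a1a and 54.71% for Bcl2a1d. How reads that match several copies were counted is not given in the sources used here, and the value of each copy is therefore uncertain. Bcl2a1d carried most of the counts, with 134, 122 and 202 CPM in WT and 116, 178 and 172 CPM in Nfkb2-/- libraries. Bcl2a1a measured 51.7, 47.1 and 84.3 CPM in WT and 41.1, 63.8 and 65.6 CPM in Nfkb2-/- libraries. When the 4 genes were summed to 1 feature, an alternative chosen after the data were seen, the level was 243 ± 80.7 CPM in WT and 241 ± 46.9 CPM in Nfkb2-/- BMDCs (SD, n = 3 each). This sum differed by -0.01 on the log2 scale (SE 0.27, 95% confidence interval -0.63 to 0.61, edgeR adjusted p = 0.987).

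The effectors Bax (ENSMUSG00000003873, chr7:45461697-45466898, minus strand) and Bak1 (ENSMUSG00000057789, chr17:27019810-27029009, minus strand) form the pore. Bax measured 23.9, 21.3 and 34.6 CPM in WT and 23.5, 27.3 and 21.7 CPM in Nfkb2-/- libraries, a log2 fold change of -0.14 (SE 0.22, 95% confidence interval -0.65 to 0.37, edgeR adjusted p = 0.785) that turned to 0.10 without WT replicate 3. Bak1 measured 31.6, 36.03 and 56.7 CPM in WT and 64.1, 59.1 and 47.8 CPM in Nfkb2-/- libraries. Its genotypes overlapped through WT replicate 3, which exceeded Nfkb2-/- replicate 3. Bak1 had a log2 fold change of 0.46 (SE 0.25, 95% confidence interval -0.12 to 1.04, edgeR adjusted p = 0.404), and 0.76 without WT replicate 3 (edgeR adjusted p = 0.107).

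Of the BH3-only genes, Bcl2l11 (ENSMUSG00000027381, chr2:128126038-128162547, plus strand) encodes Bim, which binds all anti-apoptotic members and can activate the effectors directly. It measured 182, 239 and 174 CPM in WT and 111, 131 and 143 CPM in Nfkb2-/- libraries, and each Nfkb2-/- library was below each WT library. The means were 198 ± 35.8 CPM and 129 ± 16.2 CPM (SD, n = 3 each). This is a log2 fold change of -0.63 (SE 0.18, 95% confidence interval -1.06 to -0.20), with an unadjusted p of 0.0104 and an adjusted p of 0.149 from edgeR. The exact permutation test again gave its smallest value, p = 0.1. It lay between -0.71 and -0.47 over 14 alternatives, and only DESeq2 called the gene (adjusted p = 0.0288).

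Pmaip1 (ENSMUSG00000024521, chr18:66458533-66465565, plus strand) encodes Noxa, a selective partner of Mcl1 and A1 and a target of p53. It measured 210, 223 and 207 CPM in WT and 218, 309 and 275 CPM in Nfkb2-/- libraries. Nfkb2-/- replicate 1 lay within the WT range, and the other Nfkb2-/- libraries lay above it. Noxa mRNA had a log2 fold change of 0.32 (SE 0.17, 95% confidence interval -0.07 to 0.72, edgeR adjusted p = 0.388), and of 0.18 without Nfkb2-/- replicate 2.

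Bbc3 (ENSMUSG00000002083, chr7:16308393-16318205, plus strand), the gene of the p53 target Puma, measured 9.96, 6.74 and 12.8 CPM in WT and 7.77, 8.14 and 7.33 CPM in Nfkb2-/- libraries. The 3 Nfkb2-/- values lay within the range of the WT values, and the log2 fold change was -0.35 (SE 0.25, 95% confidence interval -0.93 to 0.24, edgeR adjusted p = 0.528). Leaving out WT replicate 3 gave -0.11, and leaving out WT replicate 2 gave -0.56. Bid (ENSMUSG00000004446, chr6:120891930-120916853, minus strand) links death receptors to mitochondria after cleavage by caspase-8. It measured 17.1, 19.4 and 17.4 CPM in WT and 20.9, 15.7 and 18.3 CPM in Nfkb2-/- libraries, a log2 fold change of 0.02 (SE 0.17, 95% confidence interval -0.37 to 0.42, edgeR adjusted p = 0.958) that turned to -0.090 without Nfkb2-/- replicate 1. Bid shares 628 exonic bases with Bcl2l13 on the opposite strand, which had 747 to 1489 counts per library, and Bak1 shares 437 with Ggnbp1, which had 43 to 124. Without knowledge of the strand used in counting, reads from these overlaps, and from that of Bcl2, cannot be assigned. On the same strand, Bcl2a1b shares 401 of its 817 exonic bases with Gm29094, and Bax shares 192 with Gm45808. Gm29094 and Gm45808 had 0 counts in every library. How reads from these shared stretches were counted is not given in the sources used here, and their effect on the Bcl2a1b and Bax levels was not tested.

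**Figure D3:**
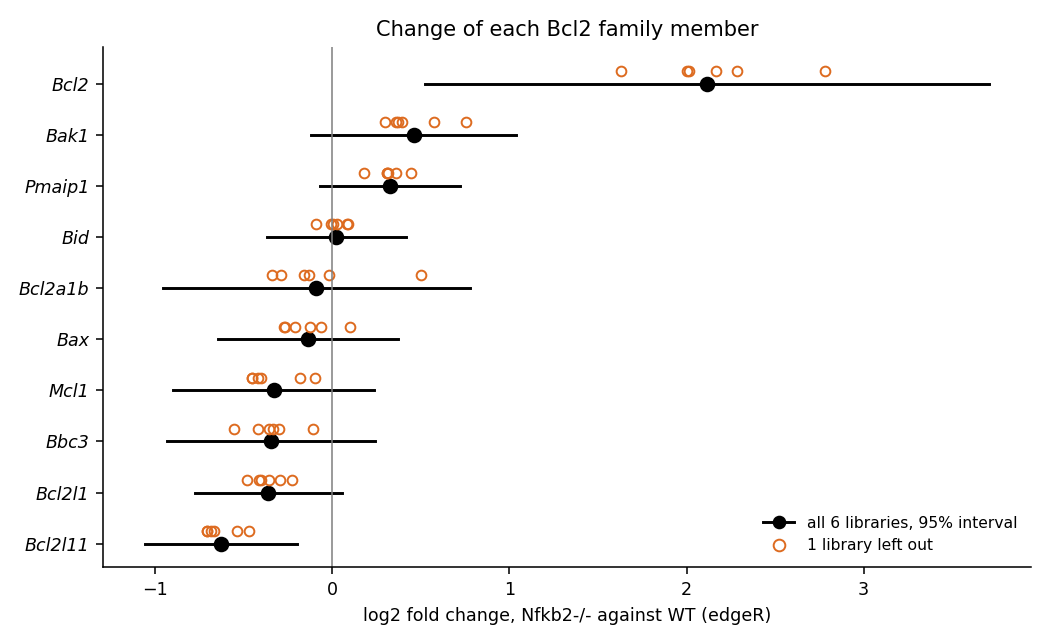
Log2 fold change of each Bcl2 family gene between Nfkb2-/- and WT BMDCs from edgeR, with 95% confidence intervals in black and the values with 1 library left out as open orange circles. The interval of Bcl2 (0.53 to 3.71) lies above 0 and that of Bcl2l11 (-1.06 to -0.20) below 0, and the intervals of the other 8 genes include 0.

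The members were also placed on a common scale, CPM per kb of merged exons, so that levels of different genes could be compared. In WT BMDCs the order was Mcl1 (157 ± 40.4 CPM per kb), Pmaip1 (78.1 ± 3.09), Bcl2a1b (35.3 ± 20.6), Bcl2l11 (24.7 ± 4.46), Bak1 (17.2 ± 5.57), Bax (16.9 ± 4.48), Bcl2l1 (8.59 ± 1.52), Bid (5.06 ± 0.348), Bbc3 (4.64 ± 1.44) and Bcl2 (0.969 ± 0.764), each as mean ± SD with n = 3. The ranges over libraries of the neighbors Bcl2a1b and Bcl2l11, Bcl2l11 and Bak1, Bak1 and Bax, and Bid and Bbc3 overlapped, so that their order is not resolved. Bcl2 was the lowest member in WT, below every Bbc3 value. In Nfkb2-/- BMDCs Bcl2 measured 4.21 ± 0.952 CPM per kb (SD, n = 3), and its range overlapped those of Bid (5.14 ± 0.732) above and Bbc3 (3.65 ± 0.190) below it. There Mcl1 (125 ± 25.3) and Pmaip1 (97.8 ± 16.8) overlapped as well, and Bak1 (23.7 ± 3.46) stood above Bcl2l11 (16.0 ± 2.02) with no overlap. This order of Bak1 and Bcl2l11 depends on the use of merged exons. With the length of the longest transcript, Bcl2l11 made up 14.1% and Bak1 13.3% of the summed pro-apoptotic level in Nfkb2-/- BMDCs (means). Bcl2l11 was then above Bak1 in Nfkb2-/- replicates 2 and 3 and below it in replicate 1. The lengths come from an annotation that was not the one used for counting, and are approximate.

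On the per-length scale Mcl1 made up 78.4% ± 2.94 of the summed level of the 4 anti-apoptotic genes in WT and 73.6% ± 4.33 in Nfkb2-/- BMDCs (SD, n = 3). Bcl2a1b followed with 16.6% ± 4.63 and 20.0% ± 4.31, and Bcl2l1 with 4.46% ± 1.36 and 3.99% ± 0.331. The share of Bcl2 was 0.634%, 0.987% and 0.0636% in the WT libraries and 2.22%, 2.52% and 2.66% in the Nfkb2-/- libraries. Although it was higher in each Nfkb2-/- library, Bcl2 remained the smallest of the 4 shares in every library. With the 4 Bcl2a1 genes summed in place of Bcl2a1b, the Bcl2a1 genes took 62.9% in WT and 67.9% in Nfkb2-/-, Mcl1 34.8% and 29.5%, and Bcl2 0.251% and 0.990%, so that the leading anti-apoptotic mRNA depends on how the copies are counted.

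Of the summed level of the 6 pro-apoptotic genes, Pmaip1 made up 53.4% ± 3.59 in WT and 60.3% ± 4.43 in Nfkb2-/- BMDCs (SD, n = 3). The share of Bcl2l11 was 16.5%, 20.1% and 14.0% in WT and 9.57%, 9.10% and 11.1% in Nfkb2-/- libraries, without overlap. Bak1 took 11.6% and 14.8%, Bax 11.5% and 9.51%, Bid 3.46% and 3.24% and Bbc3 3.16% and 2.27% as means. The log2 ratio of the summed anti-apoptotic to the summed pro-apoptotic level was 0.25, 0.21 and 0.82 in WT and -0.05, 0.06 and 0.16 in Nfkb2-/- libraries. All 3 WT values were above the Nfkb2-/- values, but this separation was lost in each of 3 alternatives. With the length of the longest transcript, WT replicate 2 (0.039) fell below Nfkb2-/- replicate 3 (0.048). With the Bcl2a1 genes summed, the ratio was 1.33 to 1.99 in WT and 1.18 to 1.53 in Nfkb2-/- libraries, and without Mcl1 it was -2.14 to -1.18 and -1.96 to -1.72. These shares and ratios are descriptions of mRNA levels and were not tested.

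**Figure D4:**
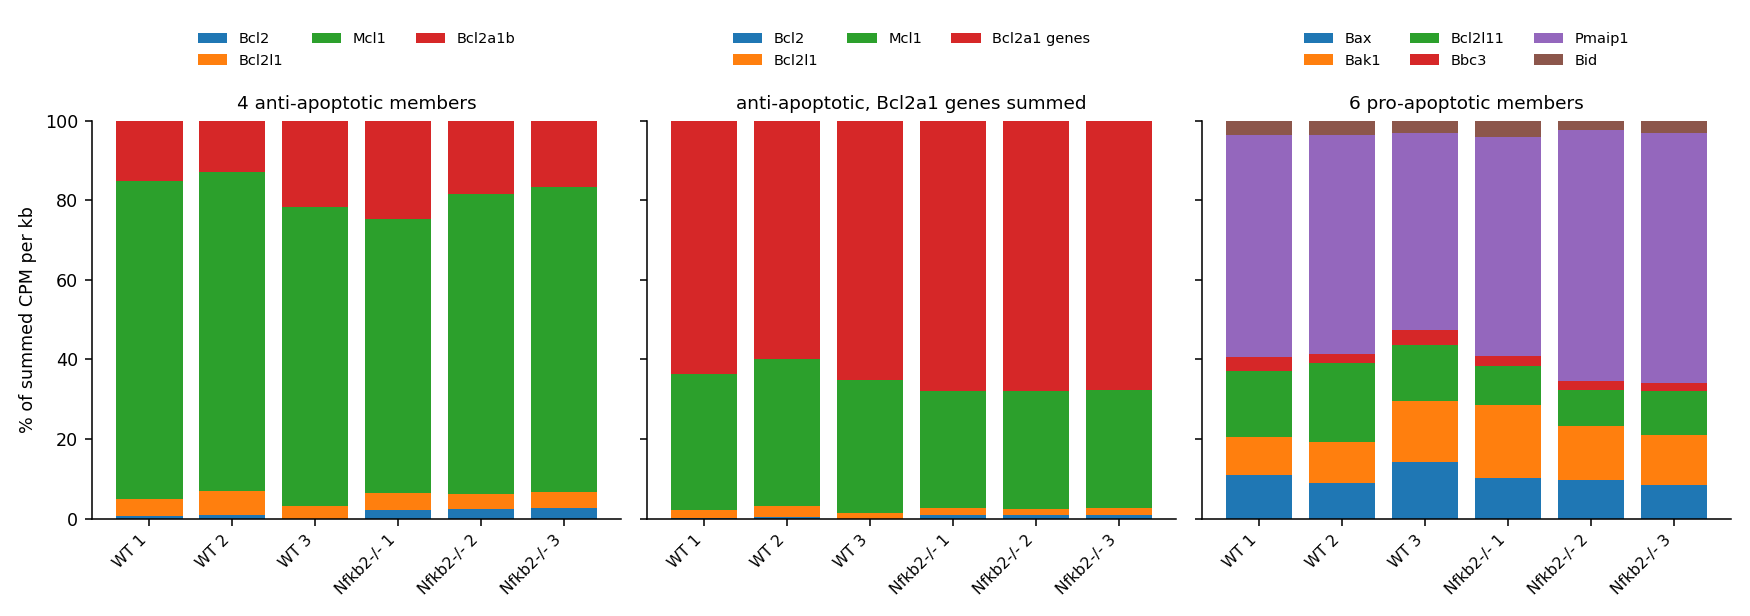
Stacked bars give the share of each gene, in percent of the summed CPM per kb, in each of the 6 libraries for the anti-apoptotic genes (left), the same with the 4 Bcl2a1 genes summed (middle) and the pro-apoptotic genes (right). Mcl1 (75.0% to 80.3% in WT and 68.6% to 76.7% in Nfkb2-/-) and Pmaip1 are the largest shares in every library when Bcl2a1b alone stands for the Bcl2a1 genes.

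Promoters were searched because the deleted gene encodes a DNA-binding factor precursor. RefSeq promoters of GRCm38.p6, from 250 bases before to 50 bases after each start, were found for 9 of the 10 members, all but Pmaip1. The NF-κB consensus was searched on both strands and was present in 4.505% of all 32851 promoters of this length. It matched 1 of 3 promoters of Bcl2l1, at -242 from the start, and 1 of 3 promoters of Bbc3, at -137, where a second match overlaps the first with a shift of 1 base. The p53 half-site, present in 8.356% of all promoters, matched Bax at -201. Neither motif was found in the windows of Bcl2, Mcl1, Bcl2a1b, Bak1, Bcl2l11 or Bid. The matches are printed 5′ to 3′ in the direction of the gene, with the motif in capitals. They lie at chr2:152830938-152830967 (minus strand) for Bcl2l1, chr7:16309434-16309467 (plus strand) for Bbc3 and chr7:45467078-45467111 (minus strand) for Bax. A match describes letters only, and the log2 fold changes of the 3 genes were -0.36, -0.35 and -0.14.
Bcl2l1: tgtttgtgGGGGGTCTCCagcatacgcctc
Bbc3: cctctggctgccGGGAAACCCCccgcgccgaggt
Bax: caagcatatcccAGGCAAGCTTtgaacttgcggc

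Of 16 further Bcl2 family genes, 15 were tested and none was called by edgeR, with a median log2 fold change of 0.03. At an unadjusted p under 0.05 from edgeR, 2 genes had lower levels, against 8.04% of all genes, and none had a higher level. Bcl2l14 measured 12.4, 4.74 and 19.7 CPM in WT and 5.02, 4.48 and 3.20 CPM in Nfkb2-/- libraries (log2 fold change -1.54, SE 0.48, edgeR adjusted p = 0.171), and was the gene of this list that DESeq2 called. Bcl2l13, which overlaps Bid, measured 33.9, 33.1 and 36.9 CPM in WT and 27.3, 24.6 and 27.9 CPM in Nfkb2-/- libraries (log2 fold change -0.38, edgeR adjusted p = 0.221). Bcl2a1c, the fourth A1 copy, had 10 to 110 counts per library (log2 fold change 1.13, edgeR adjusted p = 0.389), and the mitophagy receptor Bnip3l had a log2 fold change of -0.34 (edgeR adjusted p = 0.502).

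Downstream of the effectors, none of 11 genes of the apoptosome and the caspases was called, and the median log2 fold change was -0.13. Cycs, which encodes the cytochrome c that Bax and Bak1 release, measured 9.65, 10.95 and 8.33 CPM in WT and 14.5, 19.3 and 21.9 CPM in Nfkb2-/- libraries (log2 fold change 0.95, edgeR adjusted p = 0.0871). Its values separated without overlap, as did those of Aifm1, a mitochondrial oxidoreductase gene (log2 fold change 0.55, edgeR adjusted p = 0.139). Over all genes tested, 12.7% were higher without overlap. Apaf1, the scaffold of the apoptosome, had a log2 fold change of -0.32 (edgeR adjusted p = 0.425).

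None of 9 genes of the inhibitor of apoptosis family was called, with a median log2 fold change of 0.03. Birc5, which is also a gene of dividing cells, measured 5.12, 16.3 and 3.20 CPM in WT and 17.0, 22.8 and 23.3 CPM in Nfkb2-/- libraries (log2 fold change 1.36, edgeR adjusted p = 0.274), in the same order of WT libraries as Bcl2. The NF-κB target Birc3 and its neighbor Birc2 had log2 fold changes of -0.46 and -0.58, and Naip2 of 0.07. In the death receptor arm, which reaches the Bcl2 family through Bid, none of 8 tested genes was called and the median was -0.10. Fas measured 158, 86.1 and 274 CPM in WT and 64.9, 63.4 and 61.9 CPM in Nfkb2-/- libraries, without overlap (log2 fold change -1.45, SE 0.38, edgeR adjusted p = 0.121). Casp8, Fadd and Cflar had log2 fold changes of 0.32, -0.39 and -0.28. In this list 1 gene was higher and 3, Fas among them, were lower without overlap, against 12.7% and 12.0% of all genes.

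Among 16 genes of factors that act on Bcl2 family transcription or lie next to them in the p53 pathway, none was called, and the median was 0.18. At an unadjusted p under 0.05 from edgeR, 3 had higher and 1 had lower levels, against 9.03% and 8.04% of all genes. Trp53 measured 43.5, 43.1 and 48.7 CPM in WT and 63.1, 65.7 and 64.2 CPM in Nfkb2-/- libraries (log2 fold change 0.51, SE 0.13, edgeR adjusted p = 0.114). Its target genes Cdkn1a and Mdm2 had log2 fold changes of -0.02 and 0.17, beside 0.32, -0.35 and -0.14 for Pmaip1, Bbc3 and Bax. Foxo1, a factor known to act on Bcl2l11, had a log2 fold change of -0.47 (edgeR adjusted p = 0.219), E2f1 of 0.93 (0.196) and the myeloid factor gene Spi1 of 0.37 (0.232).

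Of 6 genes of Mcl1 protein turnover and stability, Btrc alone was called, with a lower level, where 1.14% of all genes tested were called. Btrc encodes a substrate receptor of the SCF ubiquitin ligase that acts on several proteins, Mcl1 and p100 among them. It measured 35.9, 33.3 and 34.3 CPM in WT and 19.1, 18.5 and 19.9 CPM in Nfkb2-/- libraries, a log2 fold change of -0.85 (SE 0.13, edgeR adjusted p = 0.0420). The spread within either genotype was small beside the difference. With total counts in place of TMM it was not called, nor without WT replicate 1 or any single Nfkb2-/- library. Huwe1, Usp9x and Ybx1 had log2 fold changes of -0.10, -0.12 and 0.39. Of the 5 NF-κB subunit genes, Nfkb2 was the only one called, and the median log2 fold change was -0.66. Nfkb2 included, 4 had lower levels at an unadjusted p under 0.05 from edgeR, against 8.04% of all genes. Lower values without overlap were seen for 3, against 12.0% of all genes. Rel and Relb had log2 fold changes of -0.55 and -0.67 (edgeR adjusted p = 0.203 and 0.290), and Nfkb1 of 0.07.

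**Figure D5:**
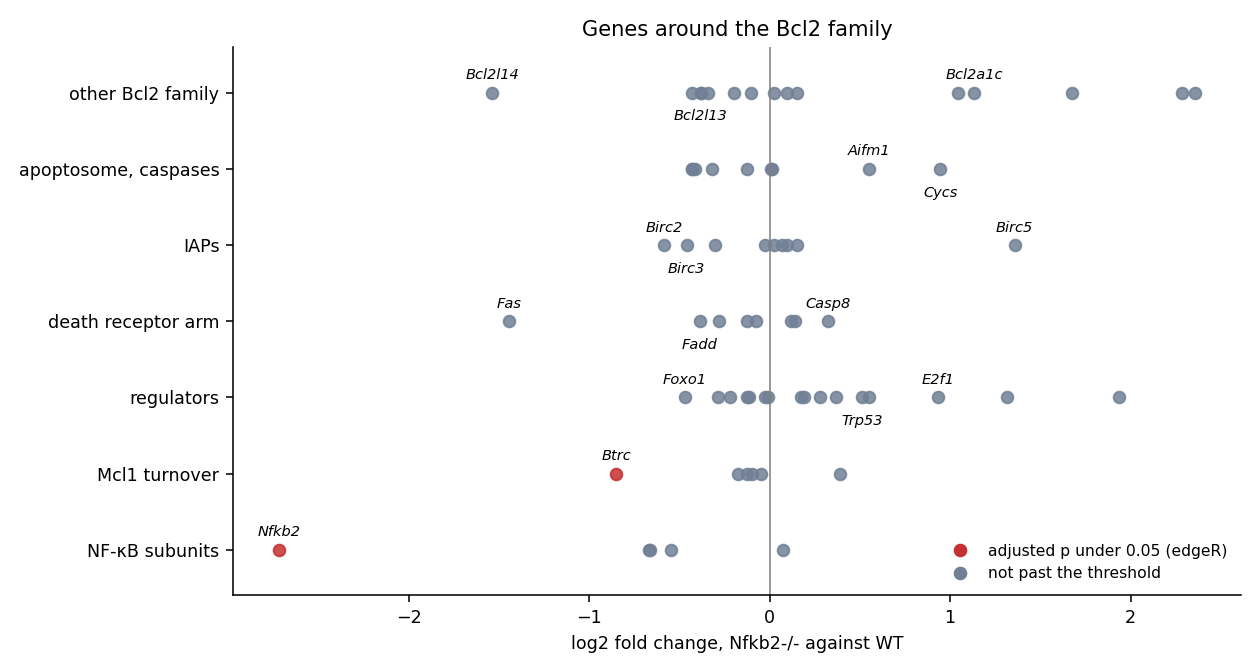
Each point is the log2 fold change (Nfkb2-/- against WT, edgeR) of a tested gene in the lists around the Bcl2 family, in red where the adjusted p was under 0.05 and the gene was called. In the pathway lists Btrc (-0.85) and Nfkb2 (-2.72) are red, and no Bcl2 family gene is.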

How the data were processed

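Polyadenylated RNA of 3 WT and 3 Nfkb2-/- BMDC cultures was sequenced. The authors deposited whole-number counts per Ensembl gene for each library, without normalization. Their processing notes name HISAT2 and GRCm38/mm10. The counting tool, annotation and strand setting are not given in the sources used here, and 4675 of 56748 IDs are absent from GENCODE M21, from which names and exon lengths were taken. A joint table repeats these values and was left out.

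The total was 29863927 to 55623068 counts per library. IDs without a name took 1.01% to 1.75% of counts and stayed out of library sizes and tests. Genes reaching 50 counts in the sum of all libraries were normalized with TMM and compared with glmQLFit and glmQLFTest across all genes (R 4.3.3, edgeR 4.0.16) without covariates. The standard error is the log2 fold change divided by the square root of F. P-values adjusted by Benjamini-Hochberg under 0.05 with a fold change over 1.2 were called. CPM are TMM-normalized. Alternatives were DESeq2 1.42.0, limma voom (3.58.1), other scalings, other filters, the replicate number as a block and each library left out. The fits were also run on simulated counts, but with changes larger than those of most members. That run therefore does not show how often changes as small as theirs would be called.

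The 10 genes, the other lists and the tests were chosen with earlier results of these data known. Genes named in other pathway lists are those called, or otherwise the 3 with the smallest unadjusted p, and the 3 with the highest CPM per kb. In cell type lists they are those called and those at 3 counts or fewer. Hbb-bt, Alas2, Irf8, Zbtb46, Ccr7, Ciita, Hrk and Trp73 were added after their values were seen. Mki67 and Top2a name their list, and the cell type markers Itgax and Cpa3 are given in the closing section. Some listed genes are not reported here and are left out of the plots.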

Additional observations from a re-analysis of the deposited data

How the results depend on the processing

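With 3 libraries per genotype, the intervals of the log2 fold changes are wide. Over 14 alternatives, Bcl2, Bcl2l1, Mcl1, Bak1, Bcl2l11, Bbc3 and Pmaip1 kept the direction of their log2 fold change. Directions turned for genes with values near 0. Bcl2a1b was at 0.066 with limma voom, 0.047 with total counts and 0.062 with the replicate block, and between -0.34 and 0.50 with 1 library left out, the upper value without WT replicate 3. With 1 library left out, Bax ranged from -0.27 to 0.10 (above 0 without WT replicate 3) and Bid from -0.090 to 0.087 (below 0 without WT replicate 1 or Nfkb2-/- replicate 1), and Bid was at -0.066 without a filter. The causes were not tested.

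DESeq2 called 2 members, 1 further family gene and 8 genes of the pathway lists, against 0, 0 and 2. Without a filter on low counts the numbers were 1, 1 and 5. Total counts gave 1 in the pathway lists. With 1 library left out, no member was called, and the further family genes called ranged from 0 to 1 and those of the pathway lists from 0 to 6, the upper values without WT replicate 2. The members without overlap ranged from 2 to 4, the upper value without WT replicate 2, WT replicate 3 or Nfkb2-/- replicate 3, where 38.5%, 34.8% and 30.9% of all genes did not overlap. Over all genes tested, 248 were called, against 1878 with DESeq2, 488 with limma voom, 397 with filterByExpr, 1625 without a filter, 459 with at least 10 counts in every library, and 0 to 1248 with 1 library left out (1248 without WT replicate 2, 0 without WT replicate 1 or any 1 Nfkb2-/- library). Scaling moved the median log2 fold change of all genes from 0.08 (TMM) to 0.06 (RLE) and 0.17 (total counts).

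Replicate numbers are shared between the genotypes, and the correlation of same-numbered libraries' deviations was 0.262, 0.148 and 0.0224. The highest correlation with another number was -0.0198, 0.164 and 0.164, so that only number 1 correlated best with itself. With 3 libraries per genotype, this check cannot decide whether same-numbered cultures were made together. With the replicate block, edgeR called 0 genes, 0 members and 0 genes of the pathway lists, with 3331 genes at an unadjusted p under 0.05. Bcl2 then had a log2 fold change of 2.47 (adjusted p = 0.161) and Bcl2l11 of -0.62 (adjusted p = 0.218).

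With the length of the longest transcript, Bcl2l1 took 7.66% of the anti-apoptotic level in WT and 6.86% in Nfkb2-/-, Bcl2 took 3.03% in Nfkb2-/-, and the log2 ratio in Nfkb2-/- was -0.052. With the Bcl2a1 genes summed, the shares were 62.9% and 67.9% for Bcl2a1, 34.8% and 29.5% for Mcl1, 1.99% and 1.61% for Bcl2l1 and, in Nfkb2-/-, 0.990% for Bcl2, with log2 ratios of 1.599 in WT and 1.37 in Nfkb2-/-. Without Mcl1 the ratios were -1.79 and -1.87.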

Other observations

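In the marker lists that served to check the cells, Itgax, the gene of the dendritic cell integrin CD11c, measured 160, 277 and 123 CPM in WT and 745, 769 and 716 CPM in Nfkb2-/- libraries and was called by edgeR (log2 fold change 1.99, adjusted p = 0.0414). Of the 12 dendritic cell markers, 5 had a log2 fold change above 0 and 7 below 0. Among the latter were Irf8 (-1.94, edgeR adjusted p = 0.0660) and Zbtb46 (-0.54, edgeR adjusted p = 0.192), both without overlap between the genotypes, and Ccr7 (-0.97, edgeR adjusted p = 0.235), which were chosen after their values were seen. Without overlap, 2 of the 12 markers were higher and 2 were lower, against 12.7% and 12.0% of all genes. The higher ones were Itgax and Ciita (0.50, edgeR adjusted p = 0.254), and Ciita was likewise named after its value was seen. Cpa3, a protease gene of mast cells and basophils, was called as lower (log2 fold change -1.84, edgeR adjusted p = 0.0413), at 6.31 to 10.8 CPM in WT and 1.86 to 2.49 CPM in Nfkb2-/- libraries. The total counts of WT replicate 2 and Nfkb2-/- replicate 2 differ by 15, yet only 3.418% of the IDs counted in either hold equal counts in both.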
